A study of Rattus norvegicus with 6 samples.

Results

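The miRNA miR-210 was followed through both arms of its hairpin, rno-miR-210-3p and rno-miR-210-5p, which are 2 of the 764 rat miRNA rows measured. They were chosen by name, as the rows that begin with rno-miR-210-. The tissue was labelled testicle and came from male Sprague Dawley rats, 3 libraries from HO-1 knockout animals and 3 from wild type animals. In every animal of both genotypes the left testis had been twisted by 720° for 2 h and then left in its natural position for 3 days, so the comparison is between genotypes after 1 injury, and no uninjured library was analysed here. HO-1 is heme oxygenase 1, an inducible enzyme that degrades heme. Its messenger RNA was not measured by small RNA sequencing, so these libraries offer no check of which animals lacked the gene.

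miR-210 is the miRNA most consistently induced by low oxygen in mammalian cells. Its gene is switched on by the transcription factor HIF-1, and its 3p strand represses, among other targets, the iron-sulfur cluster scaffold ISCU, which dampens mitochondrial respiration. The 3p strand is known as the guide, the strand kept by the Argonaute protein, and the 5p strand as the passenger that is mostly degraded.

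Both mature sequences were matched in RefSeq (GRCr8). They are shown because their seeds set the targets of each arm and because a second annotated miRNA lies opposite the 3p arm. Capitals mark the seed, bases 2 to 8 counted from the 5′ end.
miR-210-3p: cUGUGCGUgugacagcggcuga
miR-210-5p: aGCCACUGcccacagcacacug
Each arm is 22 bases long with 14 G or C bases. None of the other sequences in the RefSeq table of 694 mature rat miRNAs shared either seed, so neither arm has a seed family there. The longest run of identical bases shared with another mature miRNA was 8 for the 3p arm and 10 for the 5p arm.

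The precursor lies on the minus strand of chromosome 1 in GRCr8. Capitals mark the 5p arm first and the 3p arm second.
Mir210 hairpin: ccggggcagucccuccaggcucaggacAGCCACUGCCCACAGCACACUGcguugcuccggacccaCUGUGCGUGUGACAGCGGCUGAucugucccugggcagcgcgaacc
The 5p arm covers bases 28 to 49 and the 3p arm bases 66 to 87 of the 110-base hairpin, with 16 bases between them. In the minimum free energy fold (RNAfold, -46.5 kcal/mol), 16 of the 22 bases of the 5p arm paired with the 3p arm. Of the first 4 bases of the 5p arm, 4 were paired and 3 of these pairs were G-C. Of the first 4 bases of the 3p arm, 3 were paired and 1 of these pairs was G-C. The predicted end of the duplex at the start of the 3p arm thus holds fewer G-C pairs than that at the start of the 5p arm.

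RefSeq places another miRNA, Mir3574, on the opposite strand at the same place. All 22 bases of its mature product are complementary to the hairpin at bases 66 to 87, the positions of the 3p arm. rno-miR-3574, named here after its values were seen, was listed at 0 in all 6 libraries. No reads were therefore listed under the opposite-strand miRNA in the deposited table. How reads were assigned to a strand could not be checked here. Mir210 also lies within the bounds of a long noncoding RNA gene, LOC102553043, between the protein-coding genes Rassf7 and Phrf1.

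Values are reads per 1000000 assigned miRNA reads (RPM). Libraries held 8300536 to 10042673 such reads, as worked out from the RPM that 1 read is worth, and a miRNA at 0 could stand at up to 0.299 to 0.361 RPM, or 3 reads. Hepatocyte miR-122-5p held 43.4% ± 3.1 of the reads in the knockout and 35.2% ± 2.2 in the wild type (SD, n = 3), while 13 germ cell and Sertoli cell markers together stood at 26.1 to 30.5 RPM in the knockout and 36.3 to 52.0 RPM in the wild type. Of those 13 markers, miR-202-3p, miR-880-3p and miR-883-3p were listed at 0 in every library. In libraries labelled testicle, the most abundant miRNA was thus that of liver and the testis markers were scarce, so the tissue is given here only as the labels have it.

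The 3p arm was present at a moderate level in all 6 libraries. miR-210-3p had 29.4, 43.4 and 40.4 RPM in knockout libraries 1 to 3, against 66.8, 78.5 and 45.6 RPM in wild type libraries 1 to 3. Every knockout library was below every wild type library, but knockout library 2 and wild type library 3 lay next to each other. Their 95% Poisson intervals, 39.4 to 47.8 RPM and 41.4 to 50.1 RPM, overlapped. These intervals cover counting error only.

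The 3p arm averaged 37.7 ± 7.4 RPM in the knockout and 63.6 ± 16.7 RPM in the wild type (SD, n = 3), from 1033 and 1820 reads. By mean level it ranked 150 in the knockout and 139 in the wild type among the 764 rows. Over all 6 libraries its neighbours in that order were miR-652-3p at 54.0 RPM and miR-200c-3p at 52.6 RPM above it, and miR-96-5p at 46.7 RPM and miR-29c-3p at 44.1 RPM below it. None of these 4 neighbours differed from it in mean log2 level by more than the SD of that difference over the 6 libraries. They were picked by level in these same libraries, so this closeness is no separate result.

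The spread between libraries of 1 genotype was far larger than counting error. The coefficient of variation of the 3p arm was 19.6% in the knockout and 26.3% in the wild type, where its read numbers alone would give 5.39% and 4.06%. Its residual SD on the log2 scale was 0.35, above the median of 0.20 over the 218 miRNAs of at least 10 RPM.

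The 5p arm was close to the limit of detection. miR-210-5p had 0.48, 0.61 and 0.44 RPM in knockout libraries 1 to 3, which are 4, 6 and 4 reads, against 0.20, 0.66 and 0.53 RPM in wild type libraries 1 to 3, which are 2, 6 and 5 reads. The genotypes overlapped fully, and all 6 Poisson intervals overlapped one another. It averaged 0.510 ± 0.089 RPM in the knockout and 0.46 ± 0.24 RPM in the wild type (SD, n = 3).

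**Figure D1:**
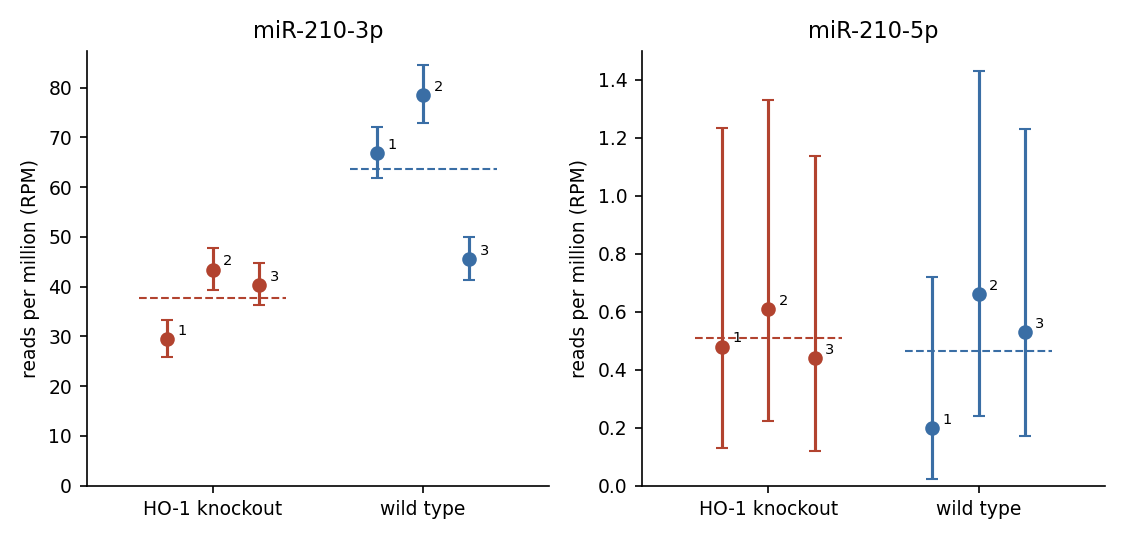
Level of each miR-210 arm in RPM (vertical axes, from 0) by genotype. Points are libraries with their replicate numbers, bars are 95% Poisson intervals that cover counting error only, and dashed lines are genotype means. The 3p arm sits between 29.4 and 43.4 RPM in the knockout and between 45.6 and 78.5 RPM in the wild type, and the 5p arm overlaps between genotypes.

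The question the design asks of miR-210 is whether its level after torsion differs between genotypes. miR-210-3p was 0.593 times as high in the knockout as in the wild type by the ratio of mean RPM, but it did not pass the test over all miRNAs. Its log2 change, knockout minus wild type on the scale of log2(RPM + 1), was -0.72 (SE 0.24, 95% interval -1.29 to -0.16), with an unadjusted p of 0.0186 and a Benjamini-Hochberg adjusted p of 0.15 in limma over 570 tested miRNAs. The exact two-sided permutation p of its RPM was 0.1, the smallest that 3 against 3 libraries allow. So neither arm was called, where 6.32% of the tested miRNAs were.

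Being lower in every knockout library was common. Of the 570 tested miRNAs, 21.6% had every knockout library below every wild type library. The 570 include many scarce miRNAs, and this share was not counted among those of at least 10 RPM. The median log2 change was -0.29 over the 218 miRNAs whose mean was 10 RPM or more, beside -0.12 over all 570 tested, and 30 of these 218 had a lower change than miR-210-3p. Relative to the median of -0.29, the change of miR-210-3p was -0.44.

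For miR-210-5p the log2 change was 0.06 (SE 0.15, 95% interval -0.30 to 0.41, limma adjusted p = 0.82). The 1 RPM added before the log exceeds every value of this arm, so this change and its interval are drawn toward 0. With 0.1 RPM added, the log2 change was 0.21 (SE 0.52, limma adjusted p = 0.84). In DESeq2 on reads it was 0.36 (SE 1.05). At this depth a moderate difference could not be seen. The 14 reads in the knockout and 13 reads in the wild type give a rate ratio of 1.14, knockout over wild type, with an exact 95% counting interval of 0.496 to 2.63. In the authors' deposited table the log2 fold changes, knockout over wild type, are -0.75 for miR-210-3p with a p-value of 0.0175, and 0.14 for miR-210-5p with a p-value of 0.77. No source used here says whether those p-values were adjusted.

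The size of the 3p difference depended on the total it was set against, and its call did not. Against totals without miR-122-5p the log2 change was -0.53 (limma adjusted p = 0.24), and against totals without the 10 most abundant miRNAs it was -0.47 (limma adjusted p = 0.22). Against totals without miR-122-5p the genotypes overlapped, because wild type library 3 then stood at 43.5 RPM, against 44.0 RPM in knockout library 2. Without wild type library 3, the lowest of its group, the log2 change was -0.94 (limma adjusted p = 0.059). Over the 20 alternatives the change lay between -0.94 and -0.47, with adjusted p between 0.053 and 0.37.

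**Figure D2:**
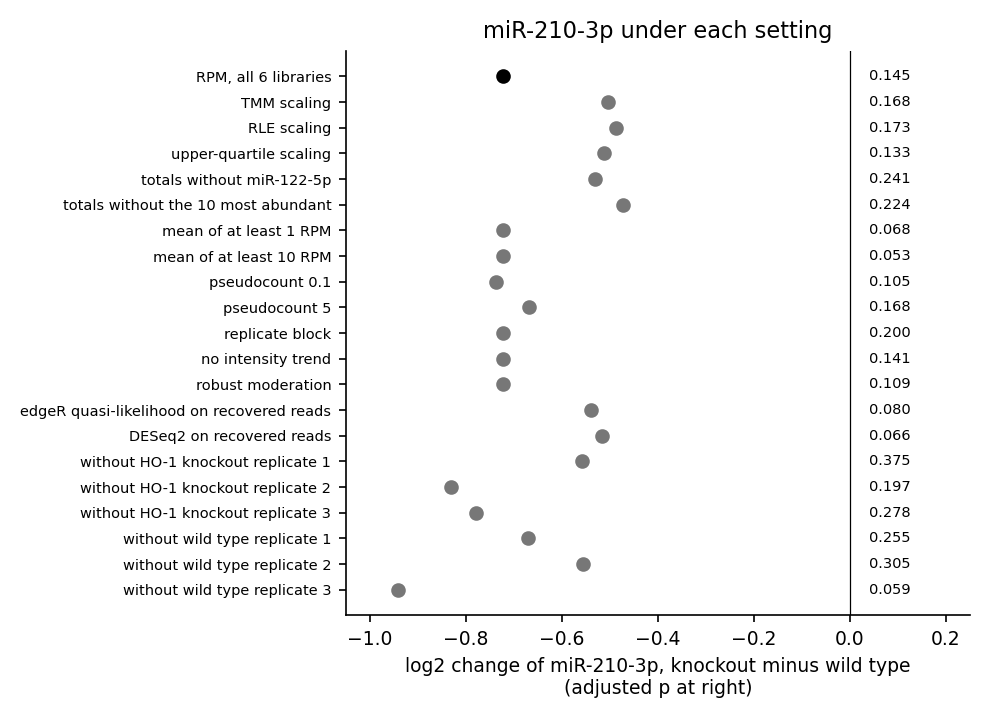
Log2 change of miR-210-3p, knockout minus wild type (horizontal axis), under each scaling, filter, test and left-out library (rows, with the RPM fit on all 6 libraries at the top), with the adjusted p at the right. All points lie below 0, between -0.94 and -0.47, and no adjusted p is below 0.05.

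Setting miR-210-3p against a single other miRNA of the same library takes the total out. Per 1000 reads of miR-21-5p, an abundant injury-associated miRNA, there were 0.390, 0.539 and 0.524 reads of miR-210-3p in knockout libraries 1 to 3, against 0.928, 1.11 and 0.674 in wild type libraries 1 to 3. The groups did not overlap (log2 difference -0.88, exact permutation p = 0.1, two-sided). This ratio also carries the log2 change of miR-21-5p, 0.15 with RPM, where the median over miRNAs of at least 10 RPM was -0.29. How many other miRNAs would separate the genotypes when set against miR-21-5p was not tested. Per 1000 reads of miR-126a-3p, the miRNA of endothelial cells, there were 1.58, 2.10 and 2.17 reads in knockout libraries 1 to 3, against 2.61, 3.03 and 1.87 in wild type libraries 1 to 3. Here wild type library 3 lay among the knockout libraries (log2 difference -0.35, exact two-sided permutation p = 0.3). The log2 change of miR-126a-3p itself was -0.39 with RPM. Adjusted over these 2 comparisons by the Benjamini-Hochberg method, the exact p were 0.2 and 0.3.

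Markers of other cells moved beside miR-210-3p, in a comparison where 5.61% of the tested miRNAs fell. With only miRNAs of at least 10 RPM tested, 41 of 218 fell and 9 rose. Of 4 hepatocyte markers 1 fell and 0 rose, with a median log2 change of -0.19. miR-122-5p, at 0.30, did not pass (limma adjusted p = 0.095), and miR-122-3p, miR-192-5p and miR-194-5p were at -0.10, -0.29 and -0.48, of which miR-194-5p fell (limma adjusted p = 0.038). Under each of the 5 other scalings (TMM, RLE, upper-quartile, and totals without miR-122-5p or without the 10 most abundant miRNAs) 0 of the 4 fell. With totals without miR-122-5p 1 of the 4 rose, where 17 of 570 miRNAs did, and under the other scalings 0 rose. The endothelial markers miR-126a-3p and miR-126a-5p summed to 19147 to 21287 RPM in the knockout and 25222 to 26982 RPM in the wild type, and 2 of 2 fell (limma adjusted p below 0.05), but only 1 of 2 did so under each of the 5 other scalings. Of 5 stromal markers 3 fell under RPM and under each of those scalings. Their sums were 6606 to 8802 RPM in the knockout and 11804 to 18895 RPM in the wild type. Over all miRNAs, 25 to 29 of 570 fell under those 5 scalings. All endothelial and stromal markers had a mean of at least 10 RPM. How many of them fell with only such miRNAs tested was not counted. None of 4 red blood cell markers passed, with sums of 377 to 459 RPM in the knockout and 467 to 580.02 RPM in the wild type. None of 4 leukocyte markers passed with RPM and 1 of 4 rose under each of the 5 other scalings, where 17 to 25 of 570 miRNAs rose. Their sums were 811 to 923 RPM in the knockout and 757 to 871 RPM in the wild type. With RPM their median log2 change was -0.18. miR-142-3p was at 0.42, while miR-142-5p, miR-223-3p and miR-150-5p were at -0.06, -0.43 and -0.30. The part of these markers, and of the miR-122-5p share, in the values of miR-210-3p was not tested. In such bulk libraries, fewer cells of a type and less RNA per cell cannot be told apart.

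The 3p arm made up nearly all miR-210 reads in both genotypes. In knockout libraries 1 to 3 there were 61.0, 71.0 and 90.8 reads of the 3p arm for each read of the 5p arm, against 336, 120 and 86.4 in wild type libraries 1 to 3. Wild type library 1, with 2 reads of the 5p arm, gave the highest ratio, and wild type library 3 lay below knockout library 3. Over all 6 libraries the 3p arm had 2853 reads and the 5p arm 27, a ratio of 106.

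The strand bias of miR-210 was strong but not extreme for its depth. Among the 197 hairpins with both arms above 0 in some library, 93 had more reads from the 3p arm and 102 from the 5p arm, and miR-210 ranked 23 by its ratio of 3p to 5p reads. By the size of the bias in either direction it ranked 58 of 197. Among the 99 hairpins with at least as many reads it ranked 47, with a log2 ratio of 6.70 beside a median of 6.46 in absolute value.

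**Figure D3:**
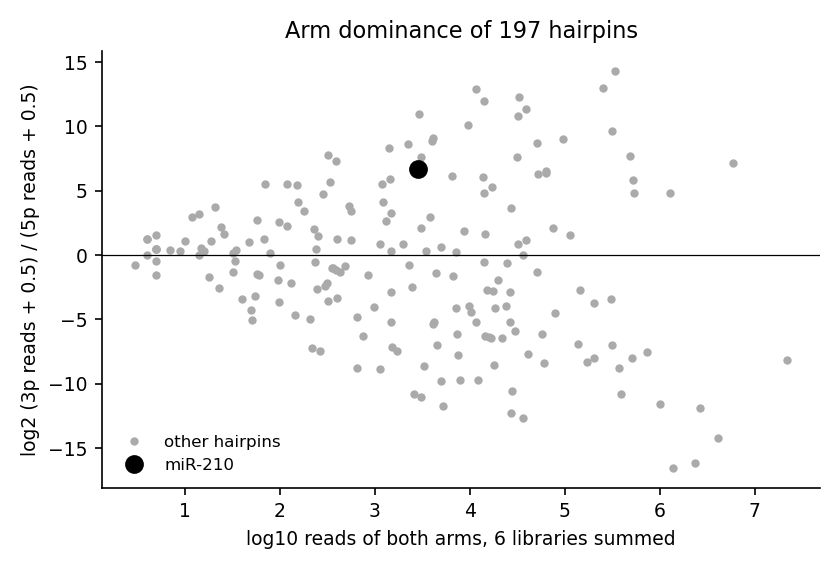
Log2 ratio of 3p to 5p reads (vertical axis, 0.5 reads added to each) against the log10 of all reads of a hairpin over 6 libraries (horizontal axis). Grey points are other hairpins and the black point is miR-210, at a log2 ratio of 6.70, within the range of other hairpins of its depth.

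The balance of the arms did not pass a test between genotypes. The 5p arm held 1.34% of miR-210 reads in the knockout (14 of 1047 reads, exact 95% binomial interval 0.733% to 2.23%) and 0.709% in the wild type (13 of 1833 reads, interval 0.378% to 1.21%). The mean log2 ratio of 3p to 5p reads was 6.05 ± 0.29 in the knockout and 7.05 ± 0.92 in the wild type (SD, n = 3), a difference of -1.01 with an exact two-sided permutation p of 0.2. In limma over the 197 hairpins, where 2.54% were called, the adjusted p was 0.31 (SE 0.51, 95% interval -2.13 to 0.12). Without wild type library 1, which had 2 reads of the 5p arm, the difference was -0.50 (limma adjusted p = 0.54).

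**Figure D4:**
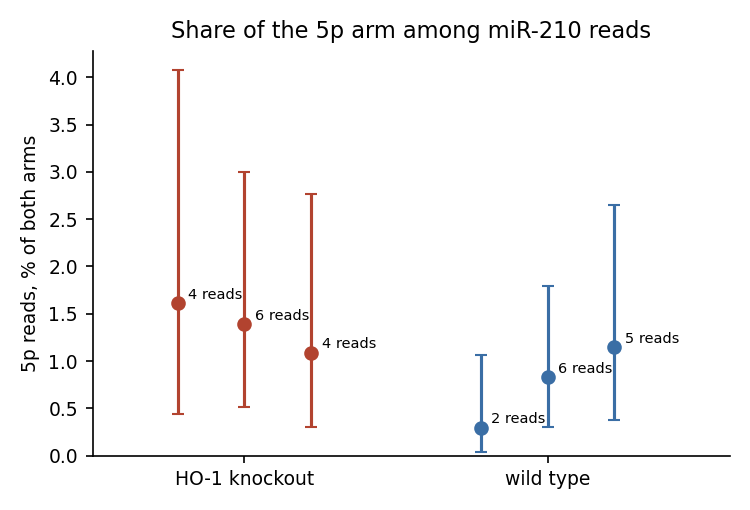
Share of 5p reads among all miR-210 reads in percent (vertical axis, from 0) by genotype. Points are libraries labelled with their number of 5p reads, and bars are exact 95% binomial intervals. The intervals of all 6 libraries overlap, and the shares run from 1.09% to 1.61% in the knockout and from 0.297% to 1.14% in the wild type.

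Summed, both arms stood at 38.2 ± 7.4 RPM in the knockout and 64.1 ± 16.7 RPM in the wild type (SD, n = 3; exact two-sided permutation p = 0.1). Against totals without miR-122-5p that p was 0.2.

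Other miRNAs known to be induced by hypoxia, mostly in human or mouse cells, were set beside miR-210. The list of 19 includes both miR-210 arms, and the median of their log2 changes was -0.32, close to the -0.29 of the 218 miRNAs above. In this list 1 member fell, 0 rose and 18 did not pass, a share called near the 6.32% over all tested miRNAs. Those include many scarce miRNAs, while 17 of the 19 members had a mean of at least 10 RPM. With only such miRNAs tested, 4 of the 17 fell and 0 rose, where 41 of 218 fell and 9 rose. The member that fell with all 570 miRNAs tested was miR-322-5p, the rodent counterpart of the hypoxia-induced human miR-424. It had 24.2 ± 2.9 RPM in the knockout and 45.0 ± 4.7 RPM in the wild type (SD, n = 3), and its log2 change was -0.87 (SE 0.17, limma adjusted p = 0.025). When a library other than wild type library 3 was left out, it no longer passed (limma adjusted p of 0.055 to 0.13). With the replicate block it did not pass either (limma adjusted p = 0.068).

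The most abundant members of the list did not pass. miR-21-5p had 77665 ± 2604 RPM in the knockout and 70161 ± 2243 RPM in the wild type (limma adjusted p = 0.32), but rose with totals without miR-122-5p, at a log2 change of 0.34 (limma adjusted p = 0.026), with totals without the 10 most abundant miRNAs (limma adjusted p = 0.039) and in DESeq2 (adjusted p = 0.013). miR-26a-5p had 37750.5 ± 507.9 RPM in the knockout and 46396 ± 1815 RPM in the wild type (limma adjusted p = 0.056). Its log2 change was -0.30 with RPM and between -0.10 and -0.040 under the 5 other scalings, with limma adjusted p of 0.58 to 0.86, and it passed in 4 of 20 alternatives, all of them on unscaled RPM. miR-26b-5p had 6502 ± 426 RPM in the knockout and 6706 ± 752 RPM in the wild type (SD, n = 3 for each). The 3p arm of miR-210 stood far below these in level, and its log2 change was the 4th lowest of the list.

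miRNAs known to act on HIF-1 or its regulators formed the second list, of 9 members. In it 4 fell, 0 rose and 5 did not pass, where 5.61% of all tested miRNAs fell. With only miRNAs of at least 10 RPM tested, 5 of 6 members fell, where 41 of 218 miRNAs did. The list was chosen with earlier results of these data known. These counts therefore describe its members and are no separate support for a change of the list as a whole. The median log2 change was -0.67 with RPM, and between -0.47 and -0.41 under the 5 other scalings. The 4 that fell with all miRNAs tested included miR-31a-5p, which targets the HIF inhibitor FIH in human cells. The others were miR-20a-5p and miR-17-5p, which target HIF-1α in human cells, and miR-429. miR-31a-5p had 597 ± 79 RPM in the knockout and 1416 ± 87 RPM in the wild type, with a log2 change of -1.25 (limma adjusted p = 0.0033). miR-20a-5p had 327 ± 56 RPM in the knockout and 647 ± 17 RPM in the wild type, with a log2 change of -0.997 (limma adjusted p = 0.015). The log2 changes of miR-17-5p and miR-429 were -0.67 and -1.10 (limma adjusted p = 0.031 and 0.025).

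Of these 4, miR-31a-5p and miR-20a-5p passed under all 20 alternatives. miR-17-5p no longer passed whichever library was left out (limma adjusted p of 0.062 to 0.097), and neither did miR-429 unless that library was wild type library 2 (limma adjusted p of 0.063 to 0.13 for the others). miR-17-5p also did not pass with upper-quartile scaling (limma adjusted p = 0.070), the replicate block (0.087) or no intensity trend (0.053), nor did miR-429 with upper-quartile scaling (0.063). miR-199a-5p, also in this list, had 308 ± 43 RPM in the knockout and 681 ± 330 RPM in the wild type (SD, n = 3) and did not pass (limma adjusted p = 0.097), except in 5 of 20 alternatives.

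**Figure D5:**
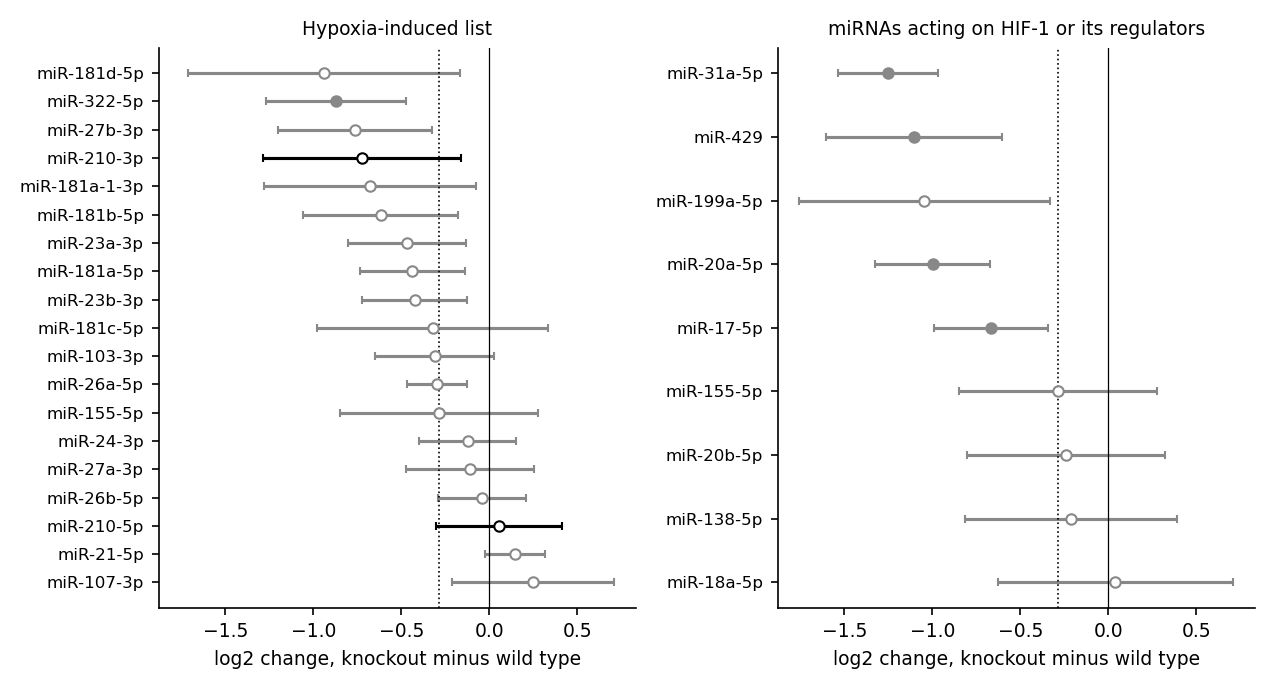
Log2 change, knockout minus wild type (horizontal axes), with 95% intervals from limma for the 19 hypoxia-induced miRNAs (left) and 9 miRNAs acting on HIF-1 or its regulators (right). Filled points passed the test, miR-210 is black, and the dotted line is the median of -0.29 over miRNAs of at least 10 RPM. miR-210-3p lies at -0.72 and miR-210-5p at 0.06, both open.

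By pattern over the 6 libraries, the miRNAs most like miR-210-3p among the 217 others of at least 10 RPM were miR-7a-1-3p, miR-30a-3p, miR-362-3p, miR-23a-3p and miR-339-5p, with Pearson r of log2(RPM + 1) of 0.98, 0.98, 0.98, 0.97 and 0.96. These r are a description over 6 libraries that share their totals. The median r over the 217 was 0.68 and 33 had an r above 0.9, so a high r was common. After the genotype means were removed, r for the same 5 miRNAs lay between 0.93 and 0.97. The 5 were picked by their r in these same libraries, and this second r was not set against that of all 217. It is thus no separate support for a shared pattern. miR-23a-3p, itself in the hypoxia-induced list, had 484 ± 57 RPM in the knockout and 670.2 ± 93.5 RPM in the wild type (SD, n = 3; limma adjusted p = 0.11). None of these 5 passed the test (limma adjusted p between 0.11 and 0.28), and miR-362-3p passed in 2 of 20 alternatives, where only miRNAs of at least 1 RPM or of at least 10 RPM were tested (limma adjusted p = 0.048 and 0.038).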

How the data were processed

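Small RNA libraries were made by ligation from 1 μg of total RNA and read as single ends of 50 bp, per the labels' protocols. The authors deposited 1 table of RPM for 764 rat miRNAs, with their mean RPM per genotype, a log2 fold change and a p-value, per the file headers. The submitters' processing notes list FastQC, BWA, edgeR and rn6 without saying what each was used for. For trimming and multiple matches, no step is stated in the labels or headers. The labels do not say that each library is a separate animal, so p-values measure the spread between libraries.

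The 6 columns were matched to samples by title, with 0 unmatched. Of the values above 0, 97.8% to 98.9% were whole multiples of 1 read to within 0.0051 RPM, where rounding alone would give 8.47% to 10.2%, and reads were recovered from these steps. The main test was limma 3.58.1 with an intensity trend on log2(RPM + 1) of the 570 miRNAs above 0 in some library, adjusted by Benjamini-Hochberg at 0.05. Whole reads served for counting intervals, arm ratios (0.5 reads added to each arm) and the alternatives in edgeR 4.0.16, which called 61 miRNAs where limma called 36, and DESeq2 1.42.0. The arm-ratio test was to use hairpins with both arms at a mean of at least 1 RPM. miR-210-5p is below that, so the exact test and the fit on all 197 hairpins are reported. The fits were tested on simulated data.

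Hairpins were folded with RNAfold 2.7.2. No GRCr8 coordinates are given, since the files use rn6. Named miRNAs were both arms, the 5 most like miR-210-3p in pattern, the 2 next above and below it in level, and the called and the 3 most abundant members of each list. Comparisons with miR-21-5p and miR-126a-3p were added after the data were seen. Members and lists were chosen with earlier results of these data known. Alternatives were other scalings, filters, pseudocounts, variance models, count tests, the replicate number as a block and each library left out.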

Additional observations from a re-analysis of the deposited data

How the results depend on the processing

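No alternative gave miR-210-3p, miR-210-5p or their arm ratio an adjusted p below 0.05, and in all alternatives run miR-210-3p was lower in the knockout. miR-210-5p changed sign without wild type library 1, at -0.079 in place of 0.06. With 1 library left out, the log2 change of miR-210-3p ranged from -0.94 to -0.56, that of miR-210-5p from -0.079 to 0.15, the arm-ratio difference from -1.38 to -0.50, and the ratio of summed arms from 0.523 to 0.676. The number of miRNAs called, 36, was 61 in edgeR, 72 in DESeq2 and 22 with the replicate block, and 5 to 26 with 1 library left out. Calls split into 4 higher and 32 lower with RPM, into 20 higher and 29 lower with TMM, 20 and 27 with RLE, 19 and 25 with upper-quartile scaling, 17 and 28 with totals without miR-122-5p, and 25 and 27 with totals without the 10 most abundant. These scalings moved the median change of miRNAs of at least 10 RPM from -0.29 to between -0.097 and -0.039.

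The replicate numbers were not taken to pair the libraries, since same-numbered libraries had correlations of their deviations of 0.033, 0.18 and 0.20, not all over 0.1. Knockout libraries 2 and 3 were each closest to their own number, and knockout library 1 was about as close to wild type library 3 (0.043) as to its own number. With the replicate block, miR-210-3p had a limma adjusted p of 0.20, miR-210-5p one of 0.83, the arm ratio one of 0.28, and the summed arms an exact p of 0.25, the smallest that 3 pairs allow.

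Members of the hypoxia-induced list that fell numbered 2 with TMM, RLE or upper-quartile scaling and with pseudocounts of 0.1 or 5. Under these settings 25 to 39 of 570 tested miRNAs fell. They numbered 3 with a mean of at least 1 RPM, with robust moderation and in edgeR. There 41 of 330, 37 of 570 and 35 of 570 tested miRNAs fell. They numbered 4 with a mean of at least 10 RPM and in DESeq2, where 41 of 218 and 37 of 570 fell. In DESeq2, 2 members also rose, where 35 of 570 miRNAs did. Members that fell numbered 0 with the replicate block, where 18 of 570 miRNAs fell. With 1 library left out they numbered 0 to 2, where 5 to 22 of 554 to 566 miRNAs fell. In the list acting on HIF-1 they numbered 2 with upper-quartile scaling, where 25 of 570 miRNAs fell. With 1 library left out they numbered 2 to 3, where again 5 to 22 miRNAs fell. They numbered 3 with the replicate block and with no intensity trend, where 18 and 25 of 570 miRNAs fell. They numbered 5 with a mean of at least 1 or 10 RPM, robust moderation, edgeR and DESeq2, beside the shares given above. These list counts, and the marker counts by scaling, were chosen after seeing the data. Depth limits the 5p arm, with 27 reads in all.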
